A study of Mus musculus with 6 samples.

Results

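The regions described here are the stretches of mouse DNA captured with the long non-coding RNA LncMyoD that lie at genes of other long non-coding RNAs and away from protein-coding genes. The assay was ChIRP-seq, in which biotin-labelled DNA probes pull down an RNA together with the chromatin it touches. The groups were LncMyoD_odd and LncMyoD_even, which are separate probe pools against the RNA, and LncMyoD_Input, which is unselected DNA, with 2 samples each. All 6 came from C57BL/6 primary myoblasts cultured for 2 days in DMEM with 2% HS and labelled as differentiated myotubes. The data were 2 peak lists. The label that names each list belongs to all 3 samples of its replicate, so each was treated as the authors' pooled list. Neither list gives a value per sample. The probe pools and input could therefore not be set against each other, no value has an SD over samples, and no test between conditions was possible. Nothing states that the replicates were separate cultures.

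A shared region was a union of peaks of both lists that overlapped by 1 bp or more. Of 97493 shared regions, 91164 lay on chromosomes 1 to 19 and were under 3000 bp wide. Among these, 7019 (7.70%, 95% exact interval 7.53 to 7.87%) had their midpoint inside or within 1 kb of a lncRNA gene and not inside or within 1 kb of a protein-coding gene. Another 40430 lay in or within 1 kb of protein-coding genes and 43715 near neither class. Genes and their biotypes were those of RefSeq on GRCm38.p6, the assembly behind mm10. The label fits that biotype by construction, and only 3 of the lncRNA symbols that could hold such a region end in -ps, a suffix for pseudogenes. A peak list carries no expression, so the labelled cell type could not be checked against markers, and neither could transcription of these lncRNA genes in the myotubes. Each value below is the fold enrichment of a region's best peak over the background the peak caller estimated, given for replicate 1 and then for replicate 2.

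Long non-coding RNAs are transcripts without a conserved reading frame. Many act near their own locus, where the RNA or the act of its transcription changes the activity of neighbouring genes, as Airn does at the imprinted Igf2r locus. Others act as hosts from which microRNAs or small nucleolar RNAs are cut, and some, such as Malat1 and Neat1, organise structures in the nucleus. In muscle, lncRNAs such as linc-MD1 and Myoparr take part in the switch from dividing myoblasts to myotubes, and LncMyoD itself is induced by MyoD during that switch.

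The sequences that follow are the RefSeq promoter windows, 250 bases before to 50 bases after a start, of 3 of the 6 strongest regions that overlapped a lncRNA promoter. They were picked from the 6 after their values were seen. AU020206 and 1700065L07Rik are shown because the summits of both lists lie within 200 bp of the start, and Gm24463 because it has the highest G+C content of the 6. The windows are written 5′ to 3′ on the strand of the gene in GRCm38.p6. Capitals mark every match to CANNTG, the E-box that MyoD and other basic helix-loop-helix factors can bind.

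AU020206: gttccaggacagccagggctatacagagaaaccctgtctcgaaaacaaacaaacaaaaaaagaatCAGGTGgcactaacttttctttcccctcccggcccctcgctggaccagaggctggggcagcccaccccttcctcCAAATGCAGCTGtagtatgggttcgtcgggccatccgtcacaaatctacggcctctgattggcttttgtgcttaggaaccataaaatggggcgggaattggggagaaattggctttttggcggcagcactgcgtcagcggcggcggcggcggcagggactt
1700065L07Rik: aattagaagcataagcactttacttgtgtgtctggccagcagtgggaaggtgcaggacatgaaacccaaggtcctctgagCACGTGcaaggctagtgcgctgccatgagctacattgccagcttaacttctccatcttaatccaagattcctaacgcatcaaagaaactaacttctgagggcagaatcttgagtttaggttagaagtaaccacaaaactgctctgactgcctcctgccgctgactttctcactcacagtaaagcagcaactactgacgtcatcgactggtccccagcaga
Gm24463: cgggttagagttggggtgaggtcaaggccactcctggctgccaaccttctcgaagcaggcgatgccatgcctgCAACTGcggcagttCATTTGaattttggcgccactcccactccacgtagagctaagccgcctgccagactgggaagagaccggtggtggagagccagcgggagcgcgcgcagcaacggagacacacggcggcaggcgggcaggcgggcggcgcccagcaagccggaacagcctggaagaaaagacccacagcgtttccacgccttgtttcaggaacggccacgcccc

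The window of AU020206 (chr7:75782071-75782370, minus strand) lay wholly inside the region that spans 75781654 to 75783399, which reached 83.4-fold and 68.9-fold. The best summits of both lists were 189 and 191 bp from its start. It held 3 matches to CANNTG, of which 1 was CAGCTG, the form of the E-box preferred by MyoD, and its G+C content was 55.7%. The window of 1700065L07Rik (chr6:73470972-73471271, minus strand) lay within a region of 76.8-fold and 59.3-fold whose summits were 200 and 153 bp from the start. The midpoint of this region lay 1030 bp from the protein-coding gene 4931417E11Rik, just past the 1 kb limit. The window held 1 match to CANNTG, which was CACGTG, and its G+C content was 48.0%. The window of Gm24463 (chr9:89066579-89066878, plus strand) was overlapped over 141 bp by a region of 65.2-fold and 78.1-fold. There the summits lay 1070 and 1065 bp from the start, so the window marks the edge and not the top of the peak, and its G+C content was 64.3%. The remaining 3 of the 6 were at Gm39792 (73.1-fold and 80.3-fold), Gm38734 (83.7-fold and 59.6-fold) and Gm46281 (65.9-fold and 68.6-fold), and none of these held CAGCTG. A match is a description of the letters and not evidence that a factor is bound.

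Regions at lncRNA genes also covered microRNA hairpins inside their hosts. Mature sequences are shown for the host of a muscle microRNA and for the host with most hairpins under a single region, from which the 3p arm of each is given. Capitals mark the seed, bases 2 to 8.

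mmu-miR-133b-3p: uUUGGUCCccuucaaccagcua
mmu-miR-133b-5p: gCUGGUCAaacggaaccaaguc
mmu-miR-541-3p: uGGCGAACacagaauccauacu
mmu-miR-409-3p: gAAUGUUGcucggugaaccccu
mmu-miR-412-3p: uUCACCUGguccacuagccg
mmu-miR-369-3p: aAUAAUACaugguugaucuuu

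The first pair comes from the Mir133b hairpin, which Lincmd1 hosts, and the other 4 from hairpins inside Mirg. All 6 seeds differ from each other. The regions over both hosts are described with their genes below.

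The first comparison asked whether shared regions at lncRNA genes were stronger or weaker than shared regions elsewhere. They spanned almost the whole range of the lists, and the values of both sets lay on top of each other, as the plot of fold by percentile shows. The median fold in replicate 1 was 10.65 at lncRNA genes (quartiles 6.55 and 20.9) and 10.68 in the other 84145 regions (6.34 and 20.6). In replicate 2 it was 11.97 at lncRNA genes (7.10 and 22.4) and 12.01 in the others (6.91 and 22.3). Over the 7019 regions the fold ran from 2.25 to 111 in replicate 1 and from 2.09 to 86.5 in replicate 2. Their median width was 746 bp, against 752 bp for the rest.

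Of the regions at lncRNA genes, 1414 (20.1%, exact interval 19.2 to 21.1%) reached 20-fold in both lists. The share over all 91164 shared regions was 20.3%, a difference of less than the counting interval. The share was 19.8% in or near protein-coding genes and 20.7% near neither class. At the other end, 281 (4.003%) had 5-fold or less in both lists, against 4.29% of all shared regions. Among the 1% of all regions with the highest mean percentile of −log10 q were 63 of the 7019 (0.898%, interval 0.690 to 1.15%), against 1.00% of all regions.

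**Figure D1:**
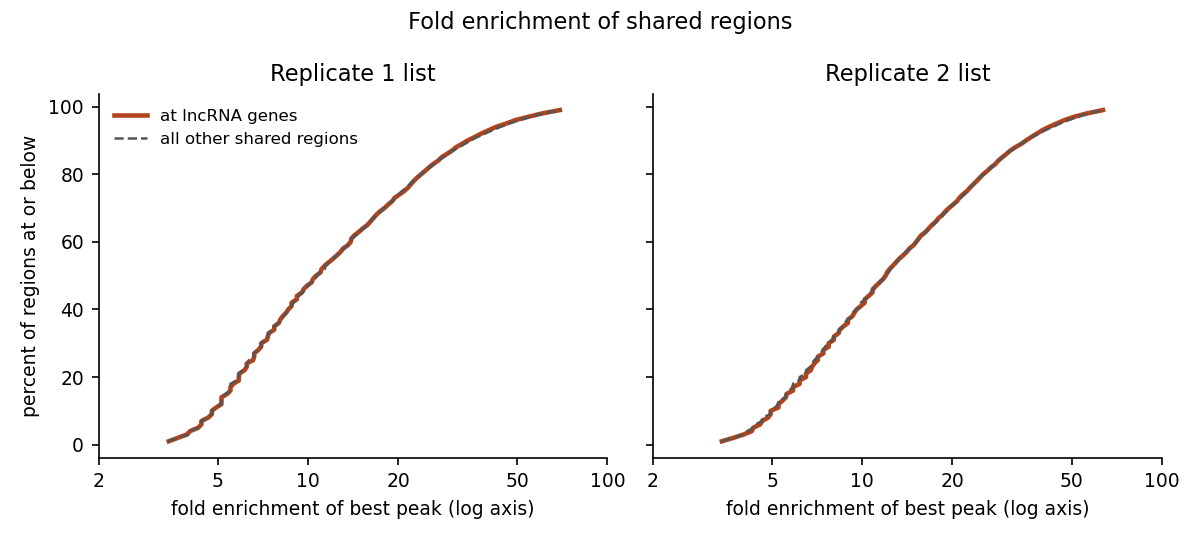
Percentile (vertical axis, percent of regions at or below) against fold enrichment of the best peak (log horizontal axis) for shared regions at lncRNA genes (solid) and all other shared regions (dashed), 1 panel per list. The lines lie on each other, with medians of 10.65 and 10.68 in replicate 1 and 11.97 and 12.01 in replicate 2.

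Both lists ordered these regions in a similar way. The log2 folds of replicates 1 and 2 had a Pearson correlation of 0.78 over the 7019 regions (Spearman 0.75), against 0.78 (0.76) over the others. These are correlations across regions of the same libraries, and regions are not independent replicates. The fold was higher in replicate 2 in 3846 regions (54.8%, against 54.2% of all shared regions). The folds differed by 2 times or more in 1069 regions (15.2%), against 14.8% of all shared regions. The best summits lay within 200 bp of each other in 5389 (76.8%, against 77.0% of all), with a median gap of 78 bp. Most, 6171 (87.9%, against 87.5% of all), joined exactly 1 peak of each list. Of the peaks with their midpoint at such a lncRNA locus, 67.0% in replicate 1 and 57.2% in replicate 2 had a partner in the other list. The values over all peaks of chromosomes 1 to 19 were 67.9% and 57.7%.

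The strongest region lay inside Gm16863 on chromosome 16 (21293270 to 21295684), with folds of 111 and 76.4 and ranks 11 and 12 by q in the lists. It took place 3 among all 91164 regions by mean percentile, and its summits in the lists were 1 bp apart. The gene is 49374 bp long, has a curated transcript and held 4 of the regions. Next came Gm30881, also on chromosome 16 (93811142 to 93813637), with 111-fold and 67.2-fold, 1801 bp from the protein-coding gene Dop1b. Gm31240 on chromosome 10 (66740199 to 66742837) had folds of 108 and 82.5, and this region of 2639 bp lay across an end of a gene of 4660 bp. The nearest protein-coding gene, Reep3, was 267671 bp away.

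The other 12 of the strongest 15 had folds from 79.1 to 101.4 in replicate 1 and from 64.9 to 85.9 in replicate 2. They lay at Gm13404 and Gm39793 together, Gm34755, Gm39463, Gm46777, Gm31460, Gm40554, Gm33693 and Gm38631 together, 4930573H18Rik, Gm34397, Gm32184, Gm33906 and Gm40638. Only Gm16863 and 4930573H18Rik among these genes have a curated RefSeq transcript, and no function is given here for any of them. All 15 regions had their midpoint inside the gene. The region at Gm32184 had the highest fold of the 15 in replicate 2 (85.9, rank 51) with a rank of 441 in replicate 1. The region at Gm40638 had the widest gap between ranks, 55 in replicate 1 (97.7-fold) and 751 in replicate 2 (64.9-fold).

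Among lncRNAs with a known role in muscle or heart, 10 of the listed genes had a span in which a region could count, and 4 held at least 1. Over all lncRNA genes with such a span the share was 39.9% (3824 of 9584). By length, 1 of 2 under 2 kb held a region (13.1% of all such genes) and 0 of 5 from 2 to 10 kb (25.9%). From 10 to 50 kb it was 2 of 2 (51.8%), and over 50 kb 1 of 1 (89.6%). Myoparr, which is transcribed from just upstream of Myog and promotes its expression, had 1 region on chromosome 1 (134287714 to 134288912) of 25.3-fold and 10.5-fold. Its midpoint lay 282 bp outside the annotated gene and 1691 bp from Myog, and this is the same DNA that a count of regions near Myog would include. Gm32221, a lncRNA gene farther along, had regions of 17.6-fold and 16.1-fold at 18775 bp from Myog and of 9.55-fold and 4.63-fold at 13507 bp.

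Lincmd1 is the table's symbol of linc-MD1, a muscle lncRNA that hosts Mir133b and is known to sponge microRNAs during differentiation. It was added by name after its values were seen. It held 2 regions on chromosome 1. The stronger (20682276 to 20683247) covered the Mir133b hairpin at the far end of the gene, with 38.6-fold and 35.8-fold, and its summits were 62 bp apart. The other (20672296 to 20674071) had 23.5-fold and 27.8-fold, 3301 bp downstream of the nearest annotated start. Both lie above the medians of 10.65 and 11.97 over all 7019. Mir1a-1hg, the host of another pair of muscle microRNA genes and likewise named after its values were seen, had regions of 19.7-fold and 21.4-fold in its interior and of 5.14-fold and 6.79-fold at 446 bp downstream of an annotated start, where the lncRNA gene B230312C02Rik overlaps it.

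Pvt1, a long lncRNA gene beside Myc, held 10 regions over its 222230 bp. The strongest (chromosome 15, 62124617 to 62126519) had 36.4-fold and 38.9-fold, and the weakest 4.04-fold and 4.32-fold. The lists differed more at a region from 62071466 to 62072270, with 5.73-fold and 12.97-fold. Carmn, a smooth muscle and cardiac lncRNA, had 1 region of 22.8-fold and 16.7-fold, and a further region of 3356 bp at its other end (70.2-fold and 68.9-fold) fell outside the width limit. Fendrr, needed for heart and body wall development, had regions of 12.9-fold and 12.7-fold and of 5.88-fold and 5.56-fold.

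Of the listed genes without a region, Bvht, Mir17hg and Munc (symbol Gm45923 in the table), an enhancer-derived RNA upstream of Myod1, overlapped no peak of either list within 1 kb. Dubr, which promotes myoblast differentiation, and Mhrt, antisense to the cardiac myosin gene Myh7, overlapped 1 peak of replicate 2 alone, at 6.49-fold and 4.63-fold. At Mhrt only 666 bp could hold a midpoint that counts. At Mir22hg the lists had peaks of 43.3-fold and 41.1-fold, in a shared region that reaches within 1 kb of the gene but has its midpoint farther out, so it does not count here. Mir133a-1hg had no span outside protein-coding genes. LncMyoD, Charme and Mir31hg are not named as lncRNA genes in the table.

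Of the imprinted lncRNA genes with a countable span, 5 of 6 held a region, against 39.9% of all lncRNA genes with such a span. These are long genes: 3 of the 6 were over 50 kb, a length at which 89.6% of all lncRNA genes held a region, and 2 were from 10 to 50 kb, where 51.8% did. Airn, which silences Igf2r and its neighbours on the paternal chromosome, had 1 on chromosome 17 (12789806 to 12791743) of 46.3-fold and 45.7-fold, 21068 bp from Igf2r. A further 2 shared regions overlapped Airn and were left out by the rule, and the best peaks over the whole gene had 71.6-fold and 68.6-fold. The maternally expressed genes of the Dlk1-Dio3 domain on chromosome 12 had lower values. Rian had 1 region of 30.5-fold and 23.2-fold, and Meg3 had 1 of 8.45-fold and 5.71-fold. Mirg had a region from 109742281 to 109743655 of 8.08-fold and 10.5-fold over the 4 hairpins whose sequences are given above, and a weaker region of 4.77-fold and 6.01-fold. In the same domain Dio3os, named after its values were seen, had 1 of 8.37-fold and 12.4-fold over Mir1247. Within the domain only the Rian region reached 20-fold in both lists among these 5.

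Snhg14, which runs antisense to Ube3a and carries tandem arrays of small nucleolar RNA genes, held 23 regions. Of these, 20 had their midpoint within 1 kb of a snoRNA gene, out of 30 such regions at all lncRNA genes (0.427%) and 128 among all shared regions (0.140%). Its span of 1177441 bp holds 206 snoRNA genes, and 59.3% of its countable span lies within 1 kb of them. Folds ran from 4.34 to 29.7 in replicate 1 (median 12.5) and from 4.02 to 27.5 in replicate 2 (median 11.7), and 3 regions reached 20-fold in both. A further 8 shared regions at Snhg14 were left out by the rule, and the best peaks over the whole gene had 68.3-fold and 64.9-fold. Many of these snoRNA genes are near-identical copies, so reads could be placed on the wrong copy. The sources used here do not say how the authors treated reads with several matches. The remaining gene with a countable span, H19, had 2 peaks in replicate 1 (best 9.92-fold) and none in replicate 2. Kcnq1ot1 and Peg13 had no span outside protein-coding genes.

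Of the lncRNAs known from nuclear architecture, chromatin or development, 8 of 12 held a region, against the same 39.9% of all. By length, 2 of 3 over 50 kb held a region (89.6% of all such genes), 3 of 3 from 10 to 50 kb (51.8%) and 3 of 6 from 2 to 10 kb (25.9%). Sox2ot, whose gene surrounds Sox2, held 6 on chromosome 3. Of these, 3 reached 20-fold in both lists, at 51.8-fold and 43.9-fold, 36.4-fold and 40.5-fold, and 21.0-fold and 25.4-fold. The remaining 3 lay between 4.62-fold and 14.2-fold. Pantr1, beside Pou3f3, had regions of 44.8-fold and 48.5-fold and of 13.5-fold and 10.8-fold, while its best peaks (85.5-fold and 76.3-fold) lay in a region left out by the rule. Hotair, expressed from the HoxC cluster, had 1 region across its end (chromosome 15, 102947300 to 102948675) of 38.1-fold and 36.4-fold, with summits 6 bp apart. Hottip, in the HoxA cluster, had 1 of 9.87-fold and 4.94-fold.

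The regions of the remaining genes of this list did not reach 20-fold in both lists. Neat1, the scaffold of paraspeckles, had 1 region of 16.7-fold and 14.5-fold across an end of its gene (5823353 to 5824892, chromosome 19). Both values lie above the medians of 10.65 and 11.97 over all 7019 regions. Malat1, found in nuclear speckles, had 1 of 7.71-fold and 7.41-fold. Rmst had regions of 10.6-fold and 9.13-fold and of 6.24-fold and 7.38-fold. Miat had 1 region on which the lists disagreed, with 3.49-fold in replicate 1 and 16.6-fold in replicate 2. Tug1, Hotairm1, Hoxa11os and Dlx6os1 had none that counted, although Tug1 (5.51-fold and 7.41-fold) and Hotairm1 (8.95-fold and 10.2-fold) each had a shared region within 1 kb that the rule left out.

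**Figure D2:**
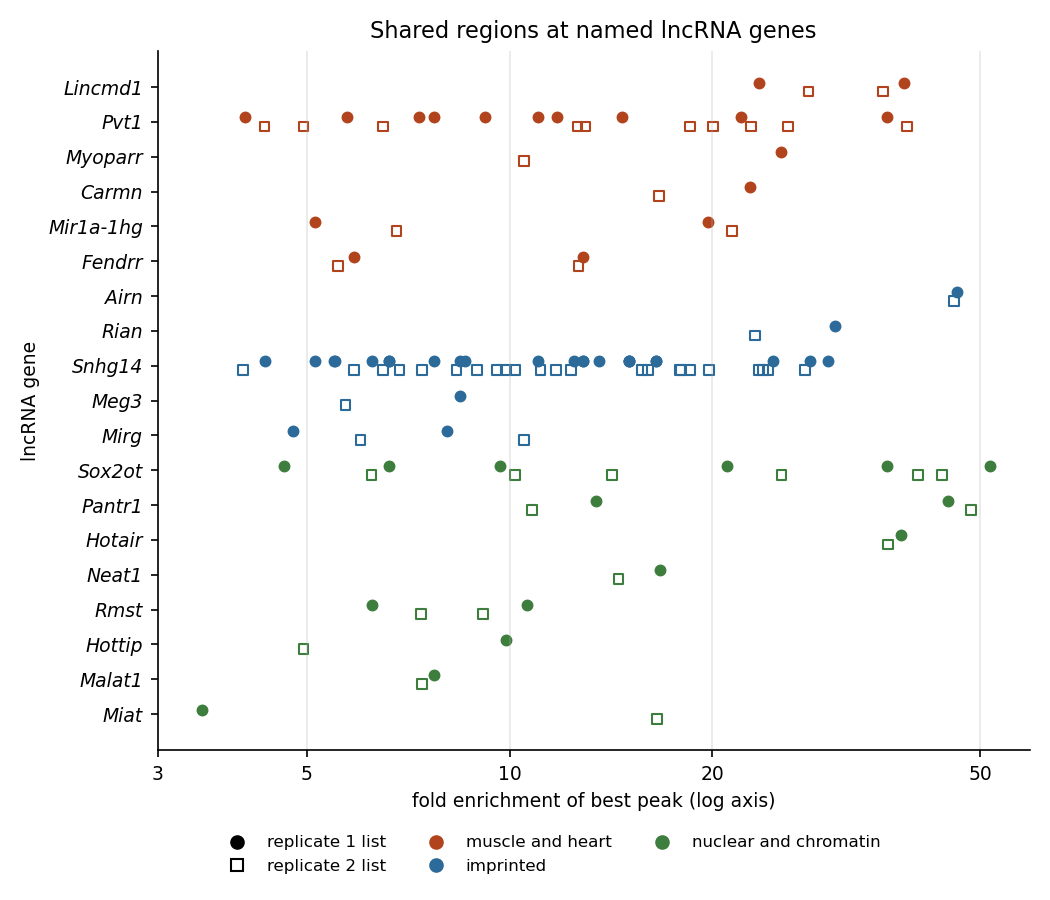
Fold enrichment of the best peak (log horizontal axis) of each shared region at named lncRNA genes, in the list of replicate 1 (filled circles) and of replicate 2 (open squares), coloured by gene list. Lincmd1 and Mir1a-1hg, named after their values were seen, are drawn with the muscle and heart list. Most genes show both lists at similar values, such as Airn at 46.3 and 45.7, while Miat has 3.49 and 16.6.

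Host genes were counted by symbol. Of 13 microRNA hosts with a countable span, 6 held a region, 16 regions in all, and 3 of 19 snoRNA hosts did. The share over all lncRNA genes with such a span was 39.9%. Per Mb of countable span, counted gene by gene, microRNA hosts held 22.4 regions and snoRNA hosts 33.4, against 38.6 over all lncRNA genes. The median gene length was 15486 bp for microRNA hosts and 3069 bp for snoRNA hosts. Of all lncRNA genes with a countable span, 51.8% held a region at 10 to 50 kb and 25.9% at 2 to 10 kb. The best regions of microRNA hosts were at Mir99ahg (45.5-fold and 48.8-fold), Mir670hg (28.1-fold and 29.0-fold) and Mirc35hg (25.1-fold and 28.4-fold). Among snoRNA hosts they were at Snhg7os (32.3-fold and 29.96-fold), Snhg14 (29.7-fold and 27.5-fold) and Snhg7 (20.6-fold and 11.4-fold). Snhg7os, by its name an opposite-strand transcript of Snhg7, was counted among the snoRNA hosts by its symbol alone. Lists of this size leave wide intervals, from 19.2 to 74.9% for microRNA hosts and from 3.38 to 39.6% for snoRNA hosts.

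Some of the lncRNA genes neighbour regulators of muscle differentiation. With each region assigned to its nearest protein-coding gene, 47 regions at 20 lncRNA genes fell to 9 of 29 such regulators (31.0%, interval 15.3 to 50.8%), against 14.1% of all 20665 protein-coding genes. The regulators were chosen with earlier results known. Of the 47 regions, 8 (17.0%) lay within 50 kb of the gene, against 48.9% of all 7019. Beside Mef2c, the gene of a transcription factor that acts with MyoD, Gm52046 had a region of 38.9-fold and 45.8-fold at 46986 bp and a second of 27.9-fold and 11.4-fold at 47921 bp. Gm33663 had a region of 17.3-fold and 19.8-fold at 2436 bp from Cdkn1c, which encodes an inhibitor of the cell cycle. Gm30224 had a region of 13.6-fold and 11.4-fold at 7560 bp from Runx1. The strongest of the 47 lay in Gm33030 and Gm33083, 240485 bp from Pax3, with 75.2-fold and 71.7-fold and place 24 of 7019. At such a distance the nearest gene is a matter of position alone.

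The next comparison asked how densely shared regions lay at lncRNA genes. The territory in which a midpoint counted, lncRNA spans with 1 kb on either side and without protein-coding spans and their margins, covered 182.6 Mb, 7.48% of the span of chromosomes 1 to 19. It held 38.4 shared regions per Mb, against 37.2 per Mb in all the rest, a ratio of 1.03 (interval 1.01 to 1.06, counting error only). The 7.48% of the span lies just below the interval of 7.53 to 7.87% for the share of regions. The density was 39.7 per Mb in the protein-coding territory and 35.2 per Mb near neither class. Over the 19 chromosomes the ratio averaged 1.04 ± 0.10 (SD), from 0.877 to 1.21, and it was above 1 on 12 of them. Regions lie in clusters and are not independent, so the counting interval is too narrow, and whether the mean ratio differs from 1 was not tested.

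Among the places compared within the territory, density was highest close to lncRNA starts. Starts were taken from the RefSeq promoter table, which covers 9291 lncRNA genes on 18 of the 19 chromosomes and lacks 3117 others. The bins ran from 1 kb upstream to 50 kb downstream of the nearest start, and regions beyond them are not in the profile. From 1 kb upstream to 1 kb downstream the 4 bins of 500 bp held 51.1, 50.2, 49.9 and 49.3 regions per Mb. From 1 to 2 kb downstream it was 42.4, from 2 to 5 kb 40.5, from 5 to 10 kb 38.9 and from 10 to 50 kb 37.3 (exact Poisson interval 35.7 to 39.0). The 4 bins closest to a start had lower bounds between 41.9 and 43.4, all above that last interval. Intervals cover counting error only.

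Around 3′ ends, away from any start, the density was 40.7 per Mb (interval 37.2 to 44.4), against 37.5 elsewhere in the territory (36.5 to 38.5). Within 1 kb of a start and away from a 3′ end it was 49.4 (45.5 to 53.5). Shared regions of any class lay at 72.5 per Mb within 1 kb of protein-coding starts (69.7 to 75.4). Of the regions within 1 kb of a start alone, 18.6% reached 20-fold in both lists, against 20.04% elsewhere in the territory.

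**Figure D3:**
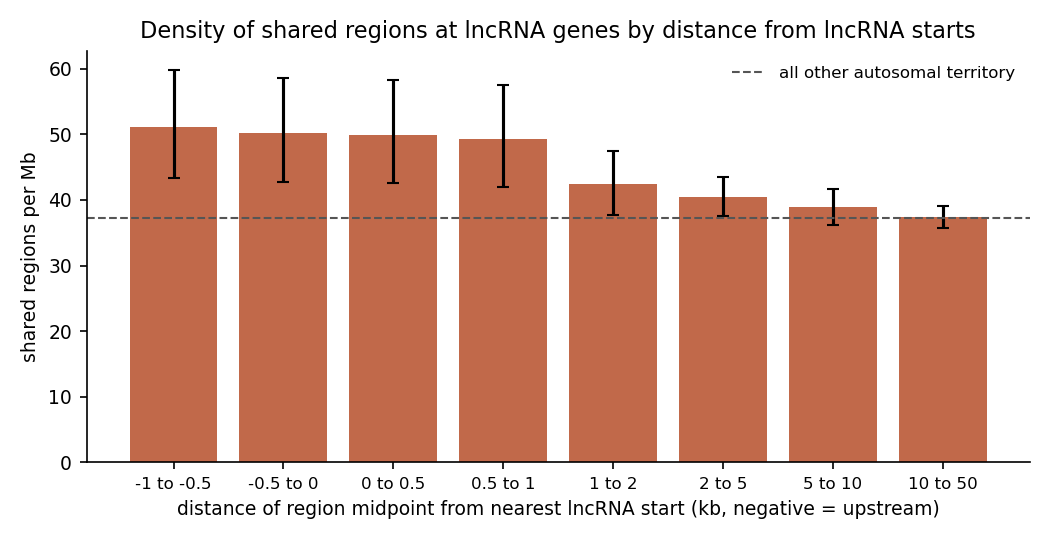
Shared regions at lncRNA genes per Mb of countable territory (bars, with 95% exact Poisson intervals) by distance of the midpoint from the nearest lncRNA start in kb, negative upstream. Regions more than 1 kb upstream or 50 kb downstream of the nearest start are not drawn. The 4 bins within 1 kb stand between 49.3 and 51.1 per Mb, above the 37.2 per Mb of the other autosomal territory (dashed line), which the bin from 10 to 50 kb meets at 37.3.

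In all, 6358 regions (90.6%) had their midpoint inside a lncRNA gene and 661 (9.42%) within 1 kb outside it. Within 1 kb of either gene end lay 1429 (20.4%), with median folds of 10.7 and 12.3, against 10.7 and 11.7 for the 5590 farther inside. Of the regions, 347 lay at 2 or 3 lncRNA genes at once. Pseudogenes lay within 1 kb of 98 (1.40%), and microRNA genes within 1 kb of 10 (0.142%). The same shares over all shared regions are not given here, so these counts do not tell these regions from others. The median distance to the nearest protein-coding gene was 52260 bp.

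The regions were spread thinly over many genes. Of 12408 lncRNA genes on these chromosomes, 2824 lay wholly within 1 kb of protein-coding genes and could hold none. Of the other 9584, 3824 (39.9%, interval 38.9 to 40.9%) held at least 1. Exactly 1 was held by 2246 genes, 2 to 4 by 1326, 5 to 9 by 214 and 10 or more by 38, and those 38 genes held 517 regions. Gene length went with the count. The share of genes with a region was 13.1% under 2 kb, 25.9% from 2 to 10 kb, 51.8% from 10 to 50 kb and 89.6% above 50 kb. Per Mb of countable span the order was the opposite, at 51.4, 47.2, 39.0 and 34.99. Across the 9584 genes the Spearman correlation of countable span and number of regions was 0.52, with both taken from the same gene models.

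Genes known from curated and from predicted transcripts are set side by side. A region was found at 40.6% of 2614 genes with a curated transcript (37.2 regions per Mb) and at 39.6% of 6970 genes with predicted transcripts alone (39.3 per Mb). The shares that reached 20-fold in both lists were 20.01% and 20.4%. By symbol, 39.7% of genes named Gm and a number held a region, 43.3% of Rik clones, 33.1% of opposite-strand or overlapping transcripts and 29.8% of genes named LOC and a number.

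The gene with most regions was Gm32647 on chromosome 7, a predicted lncRNA of 1283931 bp, with 27. Its density was 21.0 per Mb, below that of the territory, and its folds ran from 3.67 to 53.7 and from 4.02 to 59.9. Gm1604a on chromosome 17 held 26 within 252943 bp, which gives 125 per Mb of countable span. Neighbouring regions there were a median of 1869 bp apart, and 1 of the 26 reached 20-fold in both lists (21.9 and 31.2). Gm36684, on the same chromosome, had 17 at 117 per Mb, and 2 of them reached 20-fold in both lists. D5Ertd615e held 23 at 55.1 per Mb, the strongest 61.2-fold and 51.5-fold. Zmiz1os1, by its name an opposite-strand transcript of Zmiz1, held 15 at 97.5 per Mb, the strongest 58.0-fold and 53.4-fold. 1700019L22Rik (16), A930011G23Rik (16), 5730522E02Rik (15) and Gm30340 (15) had between 19.96 and 36.9 per Mb. Next came 2610307P16Rik and Gm12132 with 14 each.

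**Figure D4:**
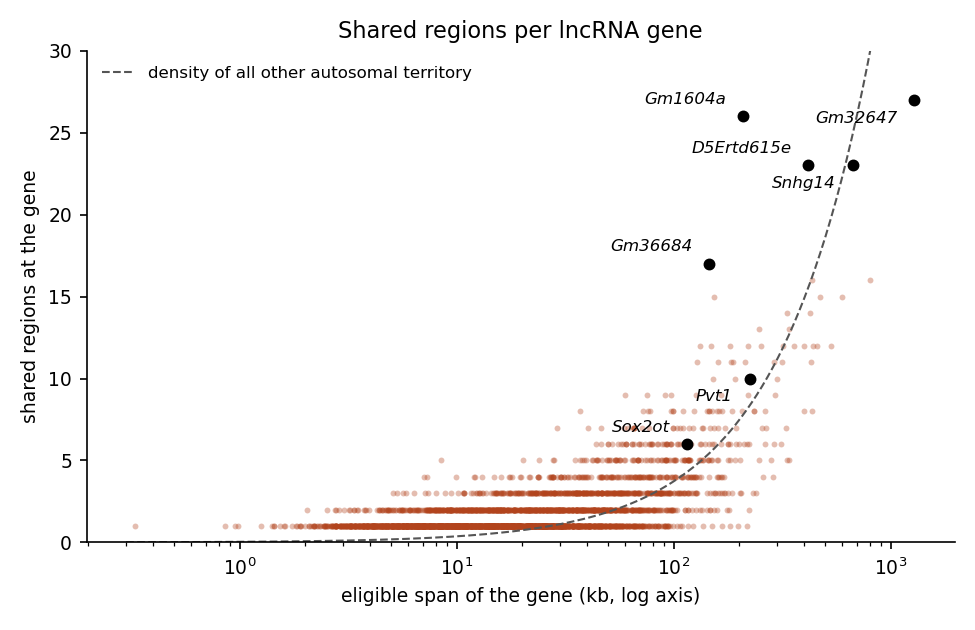
Number of shared regions at each lncRNA gene that held at least 1 (vertical axis) against the gene's countable span in kb (log axis), with the count that the density of the other autosomal territory would give (dashed curve). Gm1604a (26) and Gm36684 (17) stand far above the curve and Gm32647 (27) below it.

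Base composition at the starts was the last feature compared, since promoter windows are the sequences given here. Of 7103 lncRNA promoter windows more than 1 kb from protein-coding genes, 441 (6.21%) overlapped a region at a lncRNA gene and 453 (6.38%) any shared region. Over all 31396 windows of the table, most of them of protein-coding genes, 9.01% overlapped a shared region. Windows of 1 gene can overlap each other and are not independent. Among lncRNA windows the overlap was more frequent the higher the G+C content. It was 4.05% under 40% G+C (interval 2.93 to 5.43%), 5.68% from 40 to 50%, 8.01% from 50 to 60% and 13.7% at 60% or more (9.47 to 18.8%). Among protein-coding windows the values were 2.904%, 5.58%, 9.69% and 13.7% in the same classes. In each of the 4 classes the intervals of lncRNA and protein-coding windows overlapped, which is not a test that the shares are equal. Over all classes together the share was 6.38% of lncRNA and 9.90% of protein-coding windows. The part of base composition in that difference was not tested. Only 227 of the 7103 lncRNA windows had 60% G+C or more, against 8087 of 20085 protein-coding windows.

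**Figure D5:**
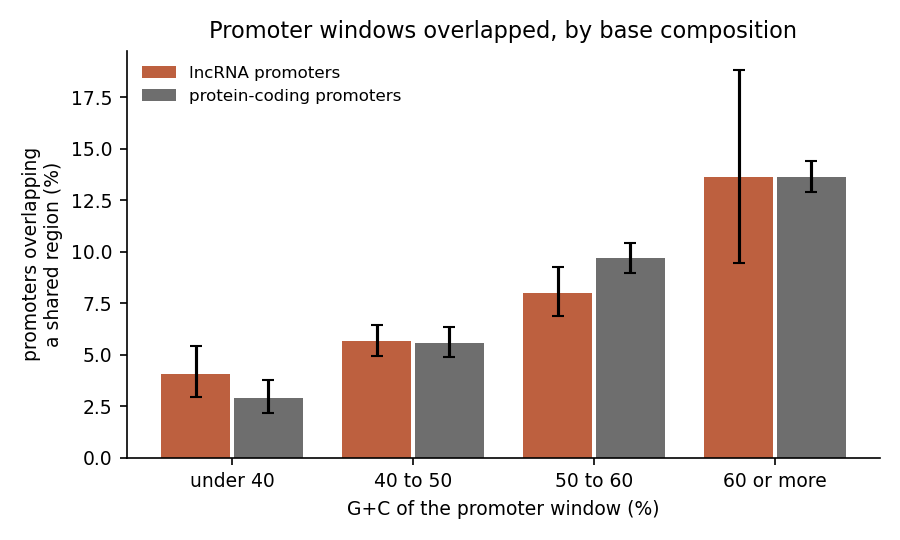
Percent of promoter windows that overlapped a shared region (bars, with 95% exact intervals) by G+C content, for lncRNA promoters away from protein-coding genes (left bar) and protein-coding promoters (right bar). Both reach 13.7% in windows with 60% G+C or more.

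Among the motifs searched on both strands, CAGCTG was found in 95 of the 441 windows overlapped by a region at a lncRNA gene (21.5%, interval 17.8 to 25.7%). It was found in 16.8% of the other 6662 lncRNA windows (15.9 to 17.7%) and in 16.3% of all windows of the table. The looser CANNTG, which includes CAGCTG, was in 83.2% (79.4 to 86.6%), 79.8% and 72.2%. The remaining motif searched, which is not an E-box, was no more frequent in the overlapped windows than in the other lncRNA windows. It was in 4.08% (2.44 to 6.37%) of the overlapped windows, 4.34% of the other lncRNA windows and 3.73% of all windows. The median G+C content was 48.7% in the overlapped windows and 47.0% in the others, and its part in the CAGCTG difference was not tested. The intervals treat windows as independent, although windows of the same gene can overlap and hold the same match. The intervals can therefore be too narrow, and whether the CAGCTG shares differ was not tested.

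The limits of the rule cut through a continuum of regions. The widest region kept was 2998 bp (Gm34725, 56.9-fold and 31.0-fold) and the narrowest left out for its width 3000 bp (A330093E20Rik, 44.8-fold and 39.2-fold). The farthest midpoint kept lay 1000 bp outside Gm30835 (6.24-fold and 7.81-fold), and the nearest left out lay 1002 bp from Gm31620 (6.30-fold and 4.54-fold). The midpoint nearest to a protein-coding gene lay 1006 bp from Gm6833 (10.1-fold and 16.2-fold), and a region 989 bp from Chst12 was left out (8.45-fold and 11.7-fold).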

How the data were processed

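Per the submitters' processing notes, the tools were MACS2 2.1.1, Bowtie2 2.3.2 and Picard 2.9.2, and the build was mm10. The sources used here give neither parameters nor the control of each call. The deposited narrowPeak lists, 1 per replicate and without headers, held 157214 and 179630 peaks. The fold is the authors' deposited ratio at the summit, and q was deposited as −log10 values (lowest 1.345 and 1.324). Read depth is unknown. Tagmentation has sequence preferences that peak lists cannot correct. Places rank regions on −log10 q: the best peak's percentile within each list, averaged over both. Gene margins were 1 kb, and no filter on low values was applied. Shares carry 95% exact (Clopper-Pearson) intervals and densities exact Poisson intervals, which treat regions as independent. The members, gene lists, named-gene rule (listed genes, the 15 strongest regions, the 10 genes with most regions, 6 promoters) and comparisons were chosen with earlier results of these data known, and no list is independent support. The comparisons of starts, promoters and base composition and the nearest-regulator list were added after the data were seen. Alternatives changed the peak threshold, overlap, margin, position, width limit, gene models and lists. Overlap and assignment code was tested on simulated data. Calculations used pandas 2.3.3, numpy 2.4.6 and scipy 1.17.1 under Python 3.11.15, with plots by matplotlib 3.10.9.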

Additional observations from a re-analysis of the deposited data

Results flagged for a closer look

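Data outside the rule also held signal at lncRNA genes. Chromosome X had 83 shared regions at lncRNA genes, of 3209 under the width limit, with median folds of 9.92 and 9.57, and chromosome Y had 4 of 2193. Of 543 autosomal regions of 3000 bp or more, 37 lay at lncRNA genes, with median folds of 51.2 and 47.3. These folds were not compared with those of the other wide regions. Peaks without a partner were frequent: 3752 of 11373 peaks of replicate 1 at lncRNA genes (median 5.73-fold, highest 59.9) and 5634 of 13163 of replicate 2 (median 5.87-fold, highest 60.5).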

How the results depend on the processing

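The density at lncRNA genes relative to the rest stayed between 1.02 and 1.05 under all 10 alternatives. With 1 list alone the count of regions was 11360 to 13151, their share of all regions 7.76 to 7.77%, the median fold 8.08 in replicate 1 and 8.11 in replicate 2, the share of 20-fold or more 18.1 to 18.4%, the genes with a region 4703 to 5187 and the share at gene ends 19.8 to 20.4%. A −log10 q of at least 5 gave median folds of 11.8 and 12.97 and a share of 20-fold or more of 22.01%. A fold of at least 5 gave 13.2, 14.5 and 24.5% for the same quantities, and a 50% reciprocal overlap gave a share of 22.7%; the cause of the last was not tested. A margin of 0 bp gave 7.16% of all regions and 12.4% at gene ends, and 5 kb gave 9.27% and 14.5%, by construction. No paired analysis was possible because neither list gives a value per sample. Without depth, counts of weak regions cannot be bounded.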

Other observations

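Short lncRNA genes with several shared regions were chosen after their values were seen. Gm48249 held 3 regions in 5069 bp of countable span, LOC115490344 held 5 in 8464 bp and Gm4792 held 4 in 7041 bp. Among the regions left out for their width, the strongest lay at Gm29230 (76.2-fold and 77.7-fold over 4349 bp), 1810013D15Rik (95.5-fold and 76.9-fold over 4106 bp) and Gm44507 (89.2-fold and 80.9-fold over 4227 bp).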
